A study of Homo sapiens with 4 samples.

Results

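The matrix metalloproteinases (MMPs) called gelatinases, the membrane-type MMPs and the tissue inhibitors of metalloproteinases (TIMPs) were followed in U87 cells, a human malignant glioma line, with and without knockdown of the receptor-type phosphatase PTPRN. The 10 genes were fixed by name, namely MMP2, MMP9, MMP14, MMP15, MMP16, MMP17, MMP24, TIMP1, TIMP2 and TIMP3. They were chosen with earlier results of these data known, so counts among them describe the set and do not test it. All 10 were listed with a value in every library, among 19314 genes listed and 16595 tested. RNA was sequenced in 4 libraries as single-end reads of 50 bases. The groups were U87 with PTPRN knockdown by a short hairpin RNA (2 libraries) and U87 with a scrambled hairpin, SCR (2 libraries). The knockdown libraries carry the name PTP2, and the labels do not spell out which hairpin of the study that is. Nothing states that the 2 libraries of a group came from separate cultures, so p-values measure only the spread between these libraries, which may be technical.

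MMPs are zinc proteases that are made as inactive precursors and cut extracellular matrix and cell-surface proteins. The gelatinases MMP2 and MMP9 are secreted and degrade denatured collagen and basement membrane collagen. MMP14, MMP15, MMP16 and MMP24 are held in the plasma membrane by a transmembrane segment, and MMP17 by a lipid anchor. TIMPs block active MMPs one to one. TIMP2 has a second role, since TIMP2 bound to one MMP14 molecule holds the MMP2 precursor at the surface for a neighbouring MMP14 to cut. Gelatinases and MMP14 are studied in glioma because the cells move through brain matrix.

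The values were FPKM, which are reads scaled to the length of the transcript and to the mapped reads of the library, so levels of different genes in one library can be compared. The worth of 1 read in short genes put the depth at about 17331000 and 17433800 reads in the knockdown libraries and 18436600 and 17470300 in the SCR libraries. PTPRN was at 12.1 and 11.7 FPKM in the knockdown libraries and at 84.8 and 85.0 in the SCR libraries. The growth protocol recorded with the libraries names hCMEC/D3, a brain endothelial line, while the cell line label is U87. Of 12 endothelial markers, 10 were under 1 FPKM in every library or had no value, and none reached 10. VE-cadherin (CDH5) was at 0.01 to 0.03 FPKM in all 4 libraries. PECAM1 was at a mean of 1.235 FPKM with knockdown and 2.445 with SCR, TEK at 1.025 and 0.525, and VWF at 0.055 and 0.955. Of the 11 endothelial markers tested, 3 rose and 2 fell (limma, adjusted p of 0.05), while 57.9% of all genes changed. The summed FPKM of the list was 4.2 to 4.85 with knockdown and 5.03 to 5.08 with SCR. Of 10 glial and glioma line markers, 5 reached 10 FPKM, but the astrocyte markers GFAP (mean 0.165 and 0.50 FPKM with knockdown and SCR) and S100B (0 and 0.025) did not. Of the myeloid markers, 1 of 10 reached 10 FPKM, CD68, and of the epithelial markers 0 of 11. The summed FPKM of the myeloid list was 346 to 364 with knockdown and near 238 with SCR, with CD68 as its bulk, and AIF1 and TYROBP had no value. The epithelial sum was 4.13 to 4.39 with knockdown and 2.56 to 2.99 with SCR, and the glial sum 4916 to 5122 and 2184 to 2268, most of it vimentin (VIM). Of the 10 glial and glioma line markers, 4 rose and 4 fell (limma, adjusted p of 0.05), or 80.0% against 57.9% of all genes. By the stricter rule described below VIM and CD44 rose, while NES (13.6 to 3.26 FPKM, log2 fold change -1.78), SOX9 (10.3 to 2.79, -1.58) and CHI3L1 (90.7 to 30.4, -1.55) fell. The part of these markers in the results below was not tested.

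The active sites of the proteases and the inhibitory ends of the TIMPs are the features by which the members meet, and their coding bases are shown for that reason. In the MMPs 3 histidines hold the catalytic zinc. The codons of these histidines are in capitals in the 33-base windows below, read from GENCODE 29 transcripts (GRCh38, coding strand, 5′ to 3′).
MMP2 (exon 8, chr16:55491827-55491859): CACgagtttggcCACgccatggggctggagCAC
MMP9 (exon 8, chr20:46012453-46012485): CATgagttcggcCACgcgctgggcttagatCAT
MMP14 (exon 5, chr14:22843283-22843315): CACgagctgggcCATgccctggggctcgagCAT
MMP15 (exon 5, chr16:58040563-58040595): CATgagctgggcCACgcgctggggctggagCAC
MMP17 (exon 5, chr12:131841659-131841691): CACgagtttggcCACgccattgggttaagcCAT
MMP24 (exon 5, chr20:35263817-35263849): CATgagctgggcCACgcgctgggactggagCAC

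Each window lay within a single coding exon on the plus strand. Of the 33 bases, 19 were identical in all 6 genes. MMP15 and MMP24 were the closest pair with 32 identical bases, and MMP17 and MMP24 the most distant with 20. The window of MMP16 is not printed here. TIMPs bind that zinc with the first cysteine of the mature protein. The first 9 codons after the signal peptide are given next, with the codons of the first and the third residue, both cysteines, in capitals.
TIMP1 (exon 2, chrX:47583485-47583511, plus strand): TGCaccTGTgtcccaccccacccacag
TIMP2 (exon 1, chr17:78924984-78925010, minus strand): TGCagcTGCtccccggtgcacccgcaa
TIMP3 (exon 1, chr22:32802071-32802097, plus strand): TGCacaTGCtcgcccagccacccccag

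The 3 TIMPs shared 15 of these 27 bases, and pairs of them shared 17 or 18. The genes with these similar ends moved in different directions with knockdown, as follows.

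TIMP2 and TIMP3 fell strongly, MMP2, MMP17 and MMP14 fell less, and TIMP1 rose. The comparison of both groups asks which genes differ between the knockdown and the SCR libraries. The knockdown libraries share the name PTP2. Lower PTPRN, other effects of that hairpin and a difference between cultures cannot be told apart by this design. It was made with limma on log2(FPKM + 1) across all tested genes, with Benjamini-Hochberg adjusted p-values. At an adjusted p of at most 0.05, 9 of the 10 genes changed, against 57.9% of all genes tested. That share includes many genes near 0. In a fit of genes with at least 1 FPKM in 2 or more libraries, 9043 of 11480 genes changed, and 7 of the 8 members kept. Of the 9 genes, 3 rose (30.8% of all genes rose) and 6 fell (27.1% of all genes fell). The study itself used a stricter rule, a 2-fold change together with an adjusted p no higher than 0.001. With that rule applied to this fit on log2(FPKM + 1), 4 of the 10 met it, against 6.69% of all genes. These 4 were TIMP2, TIMP3, MMP2 and MMP17, all lower (4.06% of all genes were lower by this rule and 2.63% higher). With a pseudocount of 0.1, or with any 1 of the 4 libraries left out, 0 of the 10 and 0 of all genes met the stricter rule. The libraries of both groups did not overlap for any of the 10 genes, which held for 75.6% of all genes. Permuting 2 against 2 libraries, an exact test for one gene reaches p = 0.333 at best. The median log2 fold change was -0.58 over the 10 genes and 0.01 over all genes tested. In such bulk samples fewer cells of a kind and less RNA per cell cannot be told apart.

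**Figure D1:**
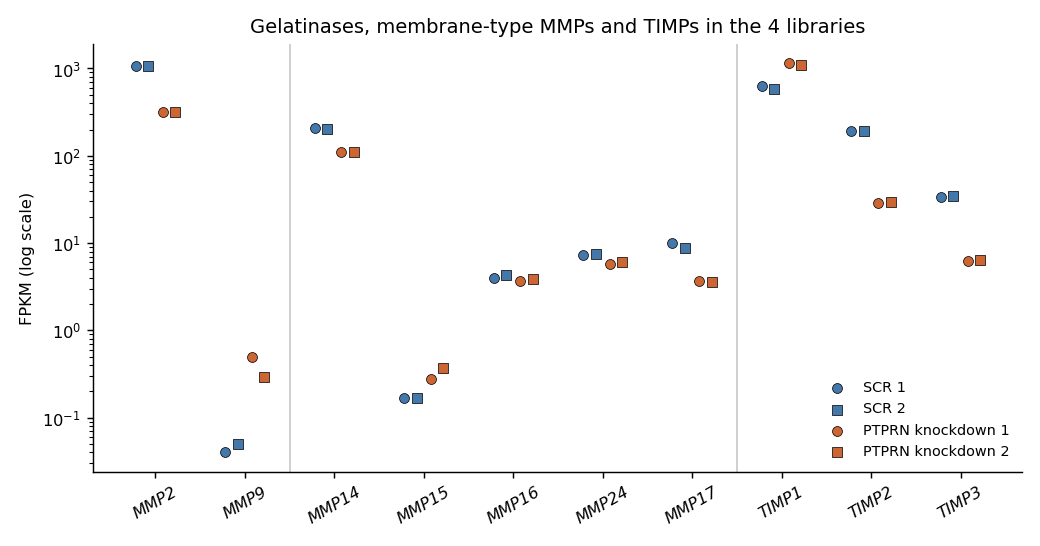
FPKM of the 10 genes (log axis) in the 2 SCR libraries (blue) and the 2 PTPRN knockdown libraries (orange), one point per library. Grey lines separate gelatinases, membrane-type MMPs and TIMPs. TIMP1 lies above the SCR points with knockdown, while TIMP2 and TIMP3 lie far below them, and MMP9 and MMP15 stay under 1 FPKM in all libraries.

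MMP2 (Gene ID 4313, chr16:55478830-55506691, GRCh38, plus strand) encodes gelatinase A, the most abundant protease of the group. It was at 1067.45 and 1067.53 FPKM in the SCR libraries and at 319.81 and 313.82 in the knockdown libraries. Both knockdown libraries were far below both SCR libraries, and the replicates of each group nearly coincided. The mean fell to 29.7% of the SCR level (317 ± 4.24 against 1067 ± 0.0566 FPKM, SD, n = 2). The log2 fold change was -1.75 (standard error 0.03, 95% interval -1.83 to -1.66, limma, adjusted p = 1.72e-04). In order of abundance MMP2 was gene 29 of 16595 in both SCR libraries and gene 196 and 197 in the knockdown libraries.

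MMP9 (Gene ID 4318, chr20:46008908-46016561, plus strand) encodes gelatinase B, which many cells make only after inflammatory or growth factor signals. It was at 0.04 and 0.05 FPKM with SCR and at 0.50 and 0.29 with knockdown. These values correspond to about 2 reads in each SCR library and about 20 and 12 reads in the knockdown libraries. MMP9 was thus higher in both knockdown libraries, at a level near the floor of detection in all 4. The ratio of these reads, adjusted for depth, was 8.26 with a 95% interval of 2.93 to 32.2 that covers counting error only. On the log2(FPKM + 1) scale, which compresses low values, the log2 fold change was 0.41 (standard error 0.08, limma, adjusted p = 0.0201), and it was 1.74 with a pseudocount of 0.1. Leaving out SCR replicate 1 or SCR replicate 2 ended the call (adjusted p = 0.186 and 0.179). In GENCODE 29 the antisense gene SLC12A5-AS1 shares 18.4% of the exonic bases of MMP9, and the use of strand in counting is not stated, so reads of both could not be told apart.

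Among the membrane-type MMPs, MMP14 (Gene ID 4323, chr14:22836533-22847600, plus strand), the surface activator of the MMP2 precursor and a collagenase itself, had most of the transcripts. It was at 207.72 and 202.34 FPKM with SCR and at 110.38 and 111.52 with knockdown. The groups were well separated, and the mean fell to 54.1% of the SCR level. The log2 fold change was -0.88 (standard error 0.03, 95% interval -0.97 to -0.79, limma, adjusted p = 4.08e-04), short of a fold of 2. MMP14 made up 90.7% of the summed FPKM of the 5 membrane-type genes with SCR and 89.0% with knockdown (means of 2 libraries).

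MMP17 (Gene ID 4326, chr12:131828393-131851771, plus strand), the lipid-anchored member, was at 9.99 and 8.83 FPKM with SCR and at 3.70 and 3.54 with knockdown. Its mean fell to 38.5% of the SCR level, with a log2 fold change of -1.17 (standard error 0.07, limma, adjusted p = 8.38e-04). This was the largest fall among the 5 membrane-type genes.

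MMP24 (Gene ID 10893, chr20:35226736-35277001, plus strand), which is best known from the nervous system, fell slightly. It was at 7.35 and 7.49 FPKM with SCR and at 5.80 and 6.06 with knockdown, with a log2 fold change of -0.28 (standard error 0.04, limma, adjusted p = 0.00520). The fall was small beside that of MMP17. The groups did not overlap, which held for 75.6% of all genes. Without SCR replicate 1 or SCR replicate 2 the adjusted p was 0.0586 and 0.0637. MMP24OS, on the opposite strand, shares 18.1% of its exonic bases and was not among the genes listed.

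MMP16 (Gene ID 4325, chr8:88037232-88327488, minus strand), a transmembrane protease that can also activate the MMP2 precursor, was at 3.97 and 4.28 FPKM with SCR and at 3.70 and 3.84 with knockdown. Its log2 fold change was -0.10 with a 95% interval of -0.23 to 0.03, and it did not pass the test (limma, adjusted p = 0.135). It passed after median-ratio scaling (log2 fold change -0.16, adjusted p = 0.0408).

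MMP15 (Gene ID 4324, chr16:58025566-58046901, plus strand), a transmembrane relative of MMP14, was at 0.17 FPKM in both SCR libraries and at 0.28 and 0.37 with knockdown. That is about 13 reads in each SCR library against 21 and 27. The ratio of reads was 1.91 with a 95% interval of 1.16 to 3.20 for counting error. The log2 fold change was 0.18 (standard error 0.05, limma, adjusted p = 0.0360). The call was lost without PTPRN knockdown replicate 2 (adjusted p = 0.0580), without SCR replicate 1 (0.196) and without SCR replicate 2 (0.195).

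**Figure D2:**
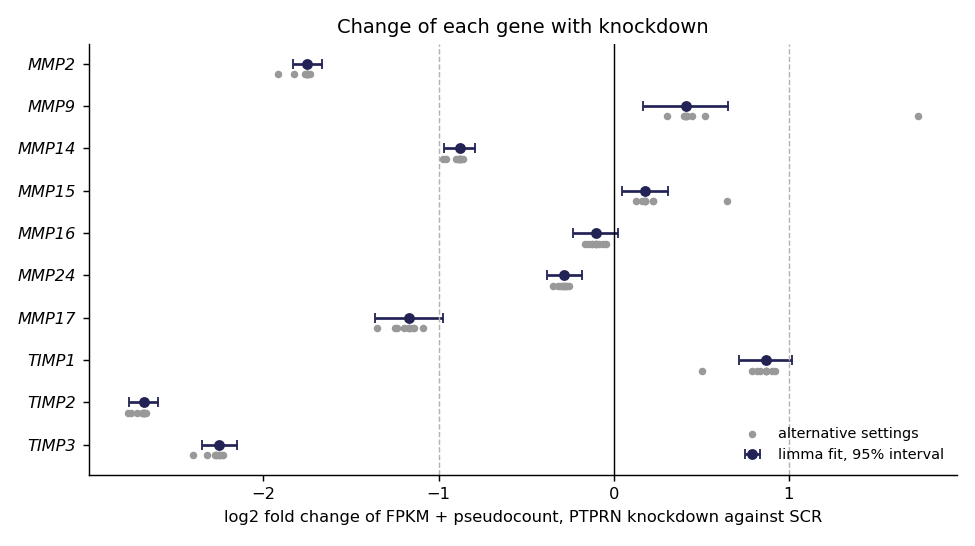
Log2 fold change of each gene, PTPRN knockdown against SCR, with its 95% interval from limma on log2(FPKM + 1) (dark points) and under the alternative settings (grey points). Dashed lines mark a fold of 2. TIMP2 and TIMP3 lie furthest to the left, and the grey point of MMP9 at 1.74 is the setting with a pseudocount of 0.1.

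TIMP1 (Gene ID 7076, chrX:47582291-47586791, plus strand) encodes a soluble inhibitor that blocks most secreted MMPs but inhibits the transmembrane MMPs only weakly, and it is known to be induced by cytokines. It was at 633.16 and 589.05 FPKM with SCR and at 1142.87 and 1091.63 with knockdown. Both knockdown libraries were above both SCR libraries by far more than the replicates differed. The mean rose 1.83-fold, with a log2 fold change of 0.87 (standard error 0.05, 95% interval 0.72 to 1.02, limma, adjusted p = 9.31e-04), under a fold of 2. After quantile normalization the log2 fold change was 0.50 (adjusted p = 0.00211). TIMP1 went from gene 58 and 67 in order of abundance with SCR to gene 35 and 34 with knockdown.

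TIMP2 (Gene ID 7077, chr17:78852527-78925390, minus strand), which inhibits MMPs and also links the MMP2 precursor to MMP14, showed the largest change of the 10 genes on the log2(FPKM + 1) scale, while the ratio of FPKM was larger for MMP9, which had few reads. It was at 193.01 and 193.56 FPKM with SCR and at 29.0 and 29.5 with knockdown. The replicates of each group were close and the groups far apart. The mean was 6.61-fold higher with SCR than with knockdown, and the log2 fold change was -2.68 (standard error 0.03, 95% interval -2.77 to -2.60, limma, adjusted p = 1.39e-04). TIMP2 was among the 302 most abundant genes in both SCR libraries, and it was gene 2768 and 2721 with knockdown.

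TIMP3 (Gene ID 7078, chr22:32800816-32863041, plus strand) encodes the inhibitor that stays bound to the matrix and also blocks ADAM proteases such as ADAM17. It was at 33.54 and 34.42 FPKM with SCR and at 6.22 and 6.46 with knockdown. The mean was 5.36-fold higher with SCR, and the log2 fold change was -2.25 (standard error 0.04, 95% interval -2.35 to -2.15, limma, adjusted p = 1.66e-04). TIMP3 was thus lowered nearly as much as TIMP2, from a lower level.

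TIMP1 and TIMP3 each lie within a synapsin gene that runs on the other strand, and CEP295NL shares 3.52% of the exonic bases of TIMP2 on the same strand. These neighbours were low in all libraries. The antisense gene AC022966.1 shares 6.52% of the exonic bases of TIMP2. AC007336.3, on the strand of MMP2, shares 3.53% of the exonic bases of MMP2. Neither was among the genes listed. SYN1, the host of TIMP1, was at a mean of 0.985 FPKM with knockdown and 0.265 with SCR and rose by this test (log2 fold change 0.64, adjusted p = 0.0157, limma). SYN3, the host of TIMP3, was at 0.040 and 0.060, and CEP295NL at 0.030 and 0.075, and neither passed 0.05. SLC12A5, the gene for which the antisense neighbour of MMP9 is named, was at 0.215 in both groups.

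The order of the levels within a group also changed. With SCR it was MMP2, TIMP1, MMP14, TIMP2, TIMP3, MMP17, MMP24, MMP16, MMP15 and MMP9, and no neighbours in this order overlapped in their 2 libraries. With knockdown TIMP1 came first, at a mean of 1117 FPKM, before MMP2 (317), MMP14 (111), TIMP2 (29.2), TIMP3 (6.34) and MMP24 (5.93). MMP16 (3.77) and MMP17 (3.62) overlapped, as did MMP9 (0.395) and MMP15 (0.325).

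Summed over the 7 MMPs, the level was 1297 and 1291 FPKM in the SCR libraries and 444 and 439 in the knockdown libraries. Summed over the 3 TIMPs it was 860 and 817 with SCR and 1178 and 1128 with knockdown. The protease sum was thus lower and the inhibitor sum higher in both knockdown libraries. There were 0.663 and 0.633 TIMP FPKM per MMP FPKM with SCR, and 2.65 and 2.57 with knockdown. These sums are descriptions of transcripts, with no test, and they say nothing of active protein. They cover the 10 genes only and not all MMPs and TIMPs of the cells. Left out are MMP3 (3.94 to 228 FPKM with knockdown), MMP1 (0.74 to 31.8) and MMP12 (0.055 to 6.94), which rose. Also left out are TIMP4 (19.7 to 9.44), MMP28 (1.515 to 0) and MMP11 (1.005 to 0.045), which fell. MMP2 held 82.5% of the protease sum with SCR and 71.7% with knockdown, and MMP14 held 15.8% and 25.1% (means of 2 libraries).

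The make-up of the inhibitor sum shifted toward TIMP1. TIMP1 held 73.6% and 72.1% of the TIMP sum in the SCR libraries and 97.0% and 96.8% in the knockdown libraries. TIMP2 held 22.5% and 23.7% with SCR and 2.46% and 2.61% with knockdown. There were 3.28 and 3.04 TIMP1 FPKM per TIMP2 FPKM with SCR, and 39.4 and 37.0 with knockdown. TIMP2 per MMP14, the pair that forms the surface receptor of the MMP2 precursor, was 0.929 and 0.957 with SCR and 0.263 and 0.264 with knockdown. MMP2 per MMP14 was 5.14 and 5.28 with SCR and 2.90 and 2.81 with knockdown. Ratios within a library do not change when the library is scaled by a single factor.

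**Figure D3:**
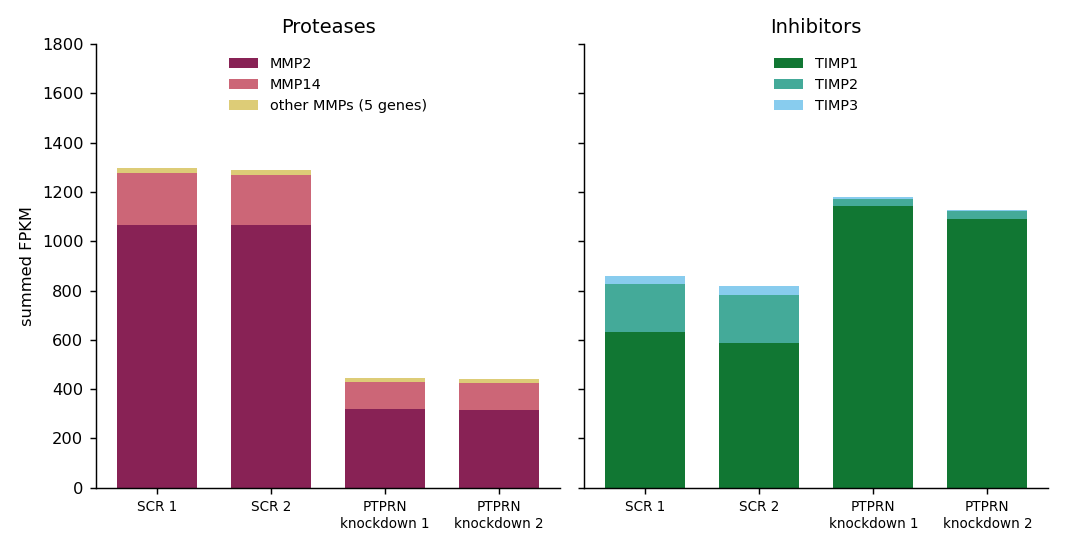
Summed FPKM of the 7 proteases (left) and the 3 inhibitors (right) in each of the 4 libraries, stacked by gene from 0. The protease stack is at 1297 and 1291 with SCR and at 444 and 439 with knockdown, and the inhibitor stack is almost all TIMP1 in the knockdown libraries.

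Sequence before the RefSeq start site was looked at for the members that moved in different directions. The RefSeq table (GRCh38.p14) held a start site for 5 of the 10 genes, MMP14, MMP15, MMP24, TIMP1 and TIMP3. For all of these but MMP24 the RefSeq start lay inside the gene extent given above, so the bases searched lay partly or wholly within that extent. The 250 bases before it were searched on both strands for the AP-1 motif TGANTCA, the AP-1 variant TGAGTAA, the GC box GGGCGG and the TATA motif TATAAA. No position can count for both AP-1 forms, and 6.57%, 2.21%, 42.6% and 10.7% of all 35116 upstream windows held them. None of the 5 genes had TGANTCA or TATAAA. The variant TGAGTAA occurred in TIMP1, with its first base 101 bases before the start, and in none of the other 4. The GC box occurred once in MMP14, in 2 copies in TIMP1, in 3 in MMP24 and in 5 each in MMP15 and TIMP3. MMP15, which was called higher, and TIMP3, which fell, thus had the same counts of all these motifs. The 30 bases around the variant in TIMP1, and around the first GC box in TIMP3 and MMP14, are printed with the motifs in capitals, since TIMP1 rose and the other two fell.
TIMP1 (chrX:47582325-47582354, plus strand): ggtgggtggaTGAGTAAtgcatccaggaag
TIMP3 (chr22:32801529-32801558, plus strand): aacgatccggGGGCGGccCCGCCCcgttac
MMP14 (chr14:22836509-22836538, plus strand): gagggcactgGGGCGGggacggaggagagg

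A match is a description of letters and not a site of binding. The transcription factors known from MMP and TIMP promoters were taken as a list of 16, all of them tested. At an adjusted p of at most 0.05, 10 rose and 5 fell, against 30.8% and 27.1% of all genes. By the thresholds of the study, applied to this fit, 3 rose and none fell, against 2.63% and 4.06% of all genes. FOSL1, an AP-1 subunit, rose from a mean of 116 to 575 FPKM (log2 fold change 2.30, adjusted p = 1.53e-04, limma). ETV4, an Ets family factor, rose by 1.51 on the log2 scale, and FOSB, another AP-1 subunit, by 1.31 from a low level (0.45 to 2.59 FPKM). Of the other AP-1 subunits, JUNB (26.9 to 52.8 FPKM) and FOS (0.685 to 1.625) also rose. FOSL2 fell from 67.1 to 42.0 FPKM and JUND from 150 to 126, while JUN was at 96.1 with SCR and 94.0 with knockdown. The median log2 fold change of the list was 0.37. A link of these factors to the members was not tested.

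The other genes of the pathway were taken from lists that were also chosen with earlier results of these data known. In a list of 7 genes, TIMP4 and MMPs on other chromosomes, 4 fell and none rose at 0.05 (57.1% changed, against 57.9% of all genes). None passed the thresholds of the study on the log2(FPKM + 1) scale of this fit, which compresses low values. Chosen after its values were seen, the fourth inhibitor TIMP4 fell from a mean of 19.7 to 9.44 FPKM (log2 fold change -0.99, adjusted p = 0.00185, limma). The MMPs of this list that fell were low. MMP28 went from 1.515 to 0 FPKM (log2 fold change -1.33), MMP11 from 1.005 to 0.045 (-0.94) and MMP23B from 0.29 to 0.09 (-0.24). Of 10 MMP genes on chromosome 11, 7 had a value, 4 rose and none fell at 0.05 (57.1% of the 7 changed, against 57.9% of all genes). By the stricter rule MMP3 (log2 fold change 5.54), MMP1 (4.24) and MMP12 (2.91) rose, in the direction opposite to MMP2 and MMP14. MMP3 reached a mean of 228 FPKM with knockdown from 3.94, below the 317 of MMP2.

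The proprotein convertases, which cut the precursors of membrane-type MMPs inside the cell, were a list of 4 genes. Of these 2 fell at 0.05 and none rose (50.0% changed, against 57.9% of all genes). None passed the stricter rule. Named after their values were seen, PCSK7 fell from 10.04 to 5.78 FPKM (log2 fold change -0.70, adjusted p = 0.00156, limma) and PCSK5 from 1.56 to 0.93 (-0.41, adjusted p = 0.00122), while FURIN was at 34.1 FPKM in both groups.

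Of 22 surface partners and regulators, 15 fell and 5 rose at 0.05, against 27.1% and 30.8% of all genes. Both directions together were 90.9% of the list, against 57.9% of all genes. By the stricter rule 3 fell and 1 rose, against 4.06% and 2.63% of all genes. On the log2(FPKM + 1) scale the largest fall was that of PCOLCE, a procollagen processing enhancer (199 to 20.5 FPKM, log2 fold change -3.22, adjusted p = 3.93e-04, limma). THBS1, a matricellular protein that binds MMP2, fell by 2.33 on the log2 scale. SPOCK3, a testican that inhibits membrane-type MMPs, fell by 1.05 and was listed at 0 in both knockdown libraries. CD44, a hyaluronan receptor that docks MMP14 and MMP9 at the surface, rose from 152 to 315 FPKM (log2 fold change 1.05, adjusted p = 3.05e-04). CD44 and KDR of this list also stand among the markers above.

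Of 20 matrix substrates, 19 had a value, 10 fell and 5 rose (78.95% changed, against 57.9% of all genes). By the stricter rule 6 fell and 1 rose, against 4.06% and 2.63% of all genes. The median log2 fold change of the list was -0.45. The fibrillar collagen chain COL1A1 fell from 520 to 32.2 FPKM (log2 fold change -3.97, adjusted p = 1.33e-04, limma). Fibronectin (FN1) fell from 421 to 51.6 FPKM. On the log2 scale COL5A1 fell by 2.68, COL1A2 by 1.87 and LAMB3, a laminin chain, by 1.51. The basement membrane (type IV) collagen chains, named after their values were seen, went both ways at 0.05. COL4A2 (0.745 to 1.38 FPKM), COL4A3 (0.02 to 0.215) and COL4A4 (0.095 to 0.225) rose from low levels. COL4A5 fell from 8.87 to 3.73 FPKM.

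**Figure D4:**
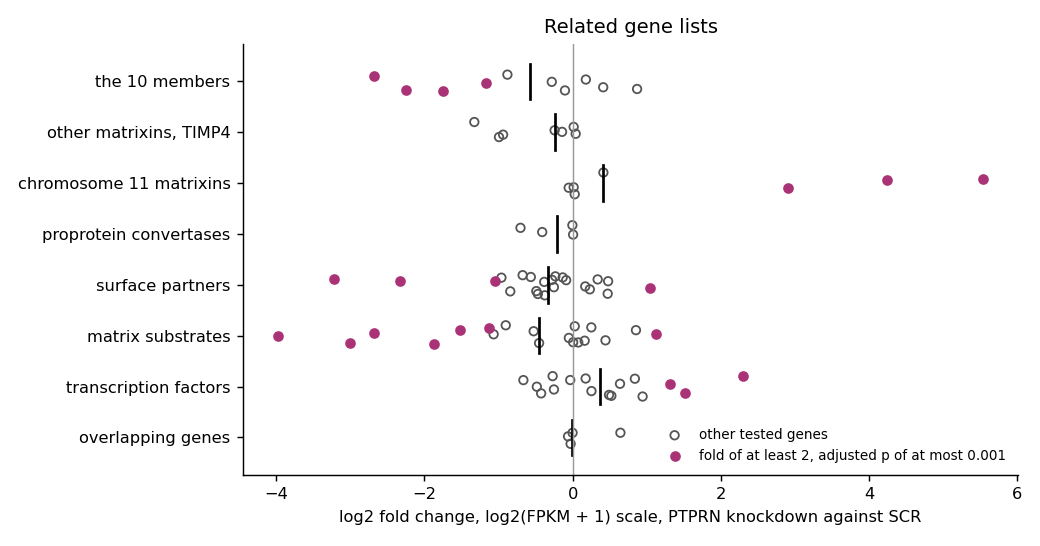
Log2 fold change (horizontal axis, log2(FPKM + 1) scale) of the 10 genes and of each related list, one point per tested gene, with filled points for genes that met the stricter rule and a black bar at the median. The chromosome 11 matrixins reach 5.54 on the right, while most filled points of the matrix substrates lie on the left.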

How the data were processed

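FPKM values of every library were deposited by the authors, rounded to 2 decimals, in 2 tables whose 66380 common values did not differ. The submitters' processing notes name HISAT2 2.1.0 and hg19, with no role. Gene positions in the table follow GRCh38, since all 10 members ended within 2000 bases of the RefSeq GRCh38.p14 gene. The counting program, the annotation and the use of strand are not given in the sources used here. Fold changes and p-values of the authors' own comparisons stand in the same table and were not used. Libraries were grouped by their titles.

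Genes not at 0 throughout (16595) entered a fit with limma 3.58.1 (R 4.3.3, lmFit and eBayes, group as the only term) on log2(FPKM + 1), with Benjamini-Hochberg adjustment over all of them. The fit was checked on simulated data. Depth was estimated from genes of 1 transcript and 600 to 1500 bases, as the median FPKM times length near 1 read. Of the low values of these genes, 89.4% to 95.5% lay within 0.25 of a whole read. Read numbers of members are therefore approximate.

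The members and lists were chosen with earlier results of these data known. Named were all members, PTPRN and a list of genes that host or overlap members. In each list the genes past a fold of 2 and an adjusted p of 0.001 with the largest change were named. At most 5 were named in each direction. For each member past those thresholds the 3 genes of nearest profile were named. Some other listed genes were named after their values were seen. Lists of endothelial, myeloid, epithelial and glial markers were also used. Alternatives were another pseudocount, a filter, a replicate block, 2 scalings, an eBayes trend and leaving out each library. One listed matrix gene that the rule names is not reported here.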

Additional observations from a re-analysis of the deposited data

How the results depend on the processing

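The 10 alternatives gave 98 values for the 10 genes, all in the same direction, and 89 of them on the same side of an adjusted p of 0.05. MMP9 and MMP15 had no value once genes under 1 FPKM in 3 or more libraries were removed. TIMP2, TIMP3, MMP2, MMP14, MMP17 and TIMP1 passed 0.05 in all 10. MMP9 lost its call without SCR replicate 1 or 2 (log2 fold change 0.41 and 0.42), and its change ran from 0.30 to 0.52 over the left-out libraries. MMP24 lost it likewise (-0.29 and -0.27, within -0.31 to -0.25). MMP15 lost it at 0.13 and 0.18 with a library left out, within 0.13 to 0.23, and at 0.18 (adjusted p = 0.0570) with the replicate block. MMP16 gained a call with median-ratio scaling (-0.16). At a fold of 2 and an adjusted p of 0.001, 0 genes and 0 members passed with a pseudocount of 0.1, with the replicate block and without any single library (limma), while 10185, 10108 and 8700 to 8790 genes had an unadjusted p under 0.05. In those fits with 3 libraries the lone library is assumed to vary like the other group. At 0.05 the count of genes was 6181 to 6332 without a library and 9139 with the replicate block, against 9603. The block left 8 of the 10 members called. The labels do not say that a replicate number marks a shared culture, and the deviations of same-numbered libraries had a correlation of 0.04 across genes, so the numbers were not taken as pairs. Genes under about 30 reads, such as MMP9 and MMP15, are limited by depth.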

Other observations

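The genes with the 4-library profile nearest to the members past a fold of 2 were sought among 6257 genes with a mean of at least 10 FPKM, by the Euclidean distance between log2(FPKM + 1) values centred on their mean. With 2 groups of 2 libraries this measure is mainly the size of the group difference. Nearest to MMP2 (log2 fold change -1.75) were SNAI2, a zinc finger repressor known from epithelial-mesenchymal transition (-1.74, 175 to 51.7 FPKM), C1R, a complement protease (-1.72), and AJUBA, a LIM domain scaffold protein (-1.75). Nearest to TIMP2 (-2.68) were the collagen chains COL5A1 (-2.68, 67.4 to 9.71 FPKM) and COL6A3 (-2.65, 146 to 22.4 FPKM) and the receptor GPER1 (-2.71). Nearest to TIMP3 (-2.25) were TMEM47 (-2.23), the glycolytic enzyme ALDOC (-2.26) and the death receptor TNFRSF21 (-2.28). Nearest to MMP17 (-1.17) were the small GTPase RHOB (-1.13), the dermatan sulfotransferase CHST14 (-1.20) and the choline transporter-like SLC44A2 (-1.12).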
